A study of Mus musculus with 3 samples.

Results

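The miR-199 and miR-214 microRNAs were examined in small RNA from extracellular vesicles (EVs) of the postnatal day 7 (PND7) mouse testis. Members were chosen with earlier results of these data known. They were defined by name, as every mature or hairpin catalogue entry called miR-199a, miR-199b or miR-214 of either arm. This gave 6 of the 805 miRNA names listed in any library, which are mmu-miR-199a-3p, mmu-miR-199b-3p, mmu-miR-199a-5p, mmu-miR-199b-5p, mmu-miR-214-3p and mmu-miR-214-5p. There were 3 libraries, all of the same group, and each came from EVs pooled from 10 male C57/BL6 mice. The vesicles were collected from the supernatant of enzymatically dissociated, decapsulated testes, so they were not sorted by the cells that released them, and they were treated with proteinase K, PMSF and RNase A before RNA extraction. The titles call the samples treated without naming another treatment. No comparison group was analysed here, and the comparisons are between members within a library. The libraries held from 25716952 to 27939308 clean reads, from 870967 to 1005836 counts on mature entries and from 493345 to 612122 on hairpin entries.

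A microRNA gene is transcribed as a longer RNA from which Drosha cuts a hairpin, and Dicer then releases a duplex of the 5p and 3p arms, usually leaving one of them in Argonaute. Targets are recognised mainly through the seed, bases 2 to 8 of the mature strand. miR-199a and miR-214 are produced together from Dnm3os, a long non-coding RNA transcribed opposite the dynamin gene Dnm3. The pair is known from mesenchymal and fibroblast-like cells, where the transcription factor Twist1 drives Dnm3os, and mice without Dnm3os have skeletal and growth defects. miR-199a-3p is known to repress Met and Mtor, miR-199a-5p the caveolin gene Cav1, and miR-214-3p the histone methyltransferase gene Ezh2.

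The mature sequences below, from RefSeq on GRCm38.p6 and matched for 5 of the 6 names, are shown because the counting of the 3p arm turns on them. Capitals mark the seed.
mmu-miR-199a-3p: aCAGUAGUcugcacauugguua
mmu-miR-199b-3p: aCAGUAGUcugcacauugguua
mmu-miR-199a-5p: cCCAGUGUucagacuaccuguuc
mmu-miR-214-3p: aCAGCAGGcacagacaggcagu
mmu-miR-214-5p: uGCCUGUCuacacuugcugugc

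miR-199a-3p and miR-199b-3p had the same sequence over all 22 bases, so a read of it cannot be placed on a gene, and their counts were summed as miR-199-3p. The miR-199a-3p and miR-214-3p strands share their first 4 bases but have different seeds, with the substitutions U5C and U8G counted from 1 at the 5′ end of miR-199a-3p. The seeds thus fall into 4 kinds, for miR-199-3p, miR-199a-5p, miR-214-3p and miR-214-5p. Among the RefSeq mature sequences the only other miRNA with one of these seeds was mmu-miR-761, which has the seed CAGCAGG of miR-214-3p. The catalogues listed no mature or hairpin entry of that name, which was taken as 0 counts in every library. A 0 allows up to 3.44 CPM in mature and up to 6.08 CPM in hairpin entries of the shallowest library. Reads of an Rfam precursor entry described as mir-761, given further below, are not covered by this limit. CPM are counts scaled so that the mature, or the hairpin, entries of a library sum to 1000000, and this limit covers counting error only.

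The hairpins are shown because the arms they hold decide which names a read can be given. Capitals mark the mature arms that RefSeq places on each hairpin.
Mir199a-2: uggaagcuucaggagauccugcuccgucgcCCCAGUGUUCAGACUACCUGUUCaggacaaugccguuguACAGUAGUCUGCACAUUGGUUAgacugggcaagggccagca
Mir214: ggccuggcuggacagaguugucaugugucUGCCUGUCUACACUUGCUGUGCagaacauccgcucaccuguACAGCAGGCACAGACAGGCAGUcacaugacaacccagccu
Mir199a-1: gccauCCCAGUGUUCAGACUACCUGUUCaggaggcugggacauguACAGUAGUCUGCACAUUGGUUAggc
Mir199b: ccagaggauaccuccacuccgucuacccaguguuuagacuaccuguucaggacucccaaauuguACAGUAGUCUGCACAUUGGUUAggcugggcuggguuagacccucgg

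Mir199a-2 lies at chr1:162217814-162217923 and Mir214 at chr1:162223368-162223477, both on the plus strand in exons of Dnm3os (chr1:162217623-162225550) and opposite an intron of Dnm3 in the GENCODE vM21 annotation of GRCm38. Their hairpins are 5444 bases apart, starting 191 and 5745 bases from the annotated start of Dnm3os. Mir199a-1 lies at chr9:21496495-21496564 on the minus strand, opposite an intron of Dnm2. Mir199b lies at chr2:32318460-32318569 on the plus strand, opposite an intron of Dnm1. The miR-199-3p sequence occurs without mismatch in all 3 mir-199 hairpins. The miR-199a-5p sequence occurs without mismatch in the Mir199a-1 and Mir199a-2 hairpins, whereas the closest window of the Mir199b hairpin, bases 26 to 48, has 1 mismatch, C10U counted from the 5′ end of miR-199a-5p. The counts of miR-199-3p and miR-199a-5p therefore cannot be given to Dnm3os alone.

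**Figure D1:**
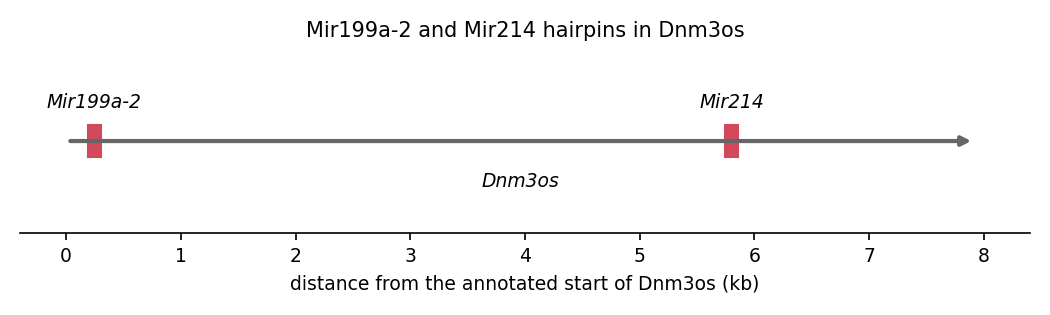
Map of Dnm3os (grey arrow, in the direction of transcription) with the Mir199a-2 and Mir214 hairpins (red boxes), drawn to scale; the x axis is the distance from the annotated start of Dnm3os in kb. Mir199a-2 lies close to the start and Mir214 farther along, with 5444 bases between the hairpins.

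In the mature entries, miR-199-3p, summed over its names, and miR-199a-5p were of similar abundance and both arms of miR-214 were lower. miR-199-3p had 2927, 3664 and 2801 mature counts in replicates 1, 2 and 3, or 3361, 3643 and 2898 CPM. miR-199a-5p had 3007, 4613 and 2524 counts, or 3452, 4586 and 2612 CPM. The 5p arm was higher in replicates 1 and 2 and the 3p arm in replicate 3. Their means were 3301 ± 376 CPM for miR-199-3p, which ranked 33 of 603 mature entries with its names summed, and 3550 ± 991 CPM for miR-199a-5p, which ranked 30 of 604 (SD, n = 3 each). The log2 ratio of miR-199-3p to miR-199a-5p was -0.07 ± 0.24 (SD, n = 3), within the spread between libraries, and a two-sided exact permutation test that flips the sign of each library's ratio gave p = 0.75.

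miR-214-3p had 846, 1283 and 845 mature counts, or 971, 1276 and 874 CPM, with a mean of 1040 ± 209 (SD, n = 3) and rank 70 of 604. miR-214-5p, often treated as the passenger strand, had 862, 1583 and 880 counts, or 990, 1574 and 911 CPM, with a mean of 1158 ± 362 (SD, n = 3) and rank 66. The 5p arm thus had more mature counts than the 3p arm in each library. The log2 ratio of the 3p to the 5p arm was -0.03, -0.30 and -0.06, with a mean of -0.13 ± 0.15 (SD, n = 3), within its spread. With mature and hairpin entries summed this ratio was 0.77, 0.25 and 0.38. miR-199b-5p was the lowest member, with 317, 257 and 253 counts, or 364, 256 and 262 CPM, and rank 122. miR-199a-5p exceeded miR-199b-5p 9.49-fold, 17.9-fold and 9.98-fold in replicates 1, 2 and 3. They are paralogous arms, and unlike the identical 3p strands the closest Mir199b window differs from miR-199a-5p at 1 base. The aligner settings and the rule for reads matching several names were not given, so how exactly reads were divided is uncertain.

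miR-199-3p was above miR-214-3p in every library, with a log2 ratio of 1.68 ± 0.15 (SD, n = 3), a 3.20-fold difference. miR-214-3p was below miR-199a-5p in every library, with a log2 ratio of -1.75 ± 0.15 (SD, n = 3). Both ratios exceeded their spread between libraries, and the same exact sign-flip permutation test gave p = 0.25 for each, the smallest p that 3 libraries allow. Such ratios were tested 8 times in all, in mature and hairpin entries and for the balance between them, and after Benjamini-Hochberg adjustment the 7 tests at the smallest p had an adjusted p of 0.286 from the exact test. With 3 libraries this exact test cannot pass a threshold of 0.05, whatever the size of a ratio. In order of mature level, miR-199a-5p and miR-199-3p were neighbours that did not differ beyond their spread, and the same held for miR-214-5p and miR-214-3p, while miR-199b-5p stood below both pairs in every library.

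The hairpin entries gave another picture, in which the 3p arm of miR-199 stood far above every other member. The authors listed reads under each mature name either as mature or as hairpin, and the sources used here do not define the hairpin type. miR-199-3p had 42718, 62392 and 46072 hairpin counts, or 86588, 101927 and 79774 CPM, and ranked 2nd of 742 hairpin entries in each library. miR-199a-5p had 1425, 2193 and 1294 hairpin counts, or 2888, 3583 and 2241 CPM, and ranked 52 of 743. miR-214-3p had 707, 1054 and 719 hairpin counts, or 1433, 1722 and 1245 CPM, and ranked 80. The order of these members was the same in each library.

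The log2 ratio of miR-199-3p to miR-199a-5p in the hairpin entries was 4.96 ± 0.17 (SD, n = 3), a 31.2-fold difference, against the ratio near 0 in the mature entries of the same libraries. The log2 ratio of miR-199-3p to miR-214-3p was 5.94 ± 0.06 (SD, n = 3), or 61.2-fold, and that of miR-214-3p to miR-199a-5p was -0.97 ± 0.11 (SD, n = 3). Each held its direction in all 3 libraries, with p = 0.25 from the exact sign-flip test. miR-214-5p had 51, 388 and 325 hairpin counts, and replicate 1 stood 6.13-fold below replicate 2 in CPM. miR-199b-5p had 28, 45 and 50 hairpin counts.

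**Figure D2:**
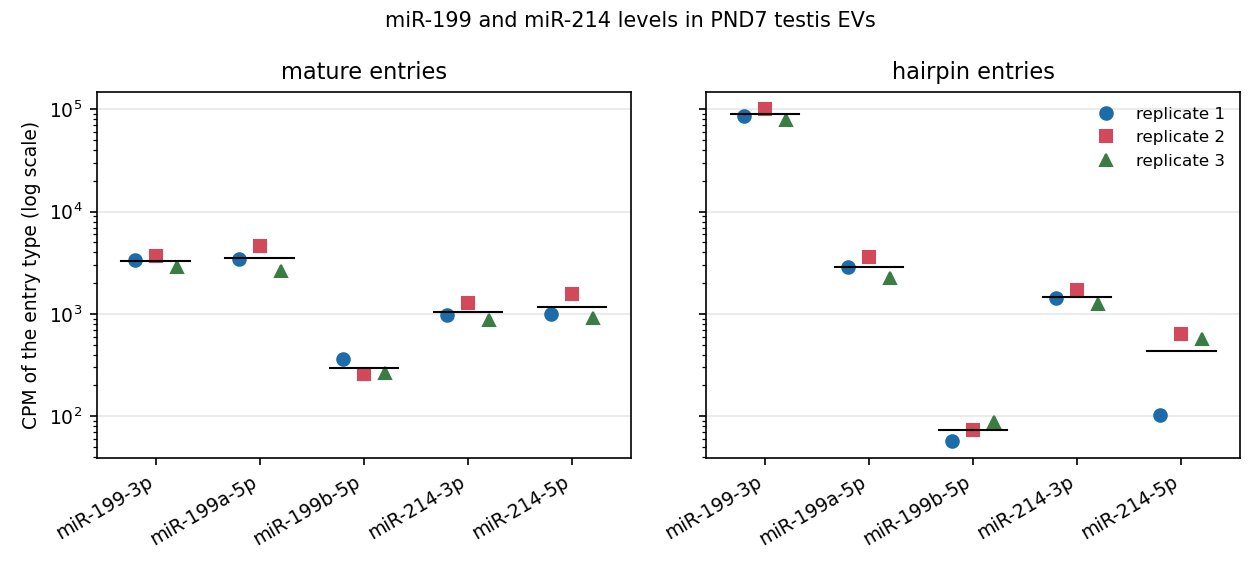
Levels of the members in mature entries (left) and hairpin entries (right); the y axis is CPM of the counts of that entry type on a log scale, points are libraries and black lines are means of 3 libraries. miR-199-3p, the sum of the miR-199a-3p and miR-199b-3p names, lay beside miR-199a-5p among mature entries and far above it among hairpin entries.

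With the 3p names of miR-199 summed, and its 5p names likewise, the log2 ratio of the 3p to the 5p arm in the mature entries was -0.18, -0.41 and 0.01 in replicates 1, 2 and 3. Neither miR-199 nor miR-214 thus had the 3p arm above the 5p arm in all 3 mature libraries, where 32.6% of the 92 pairs with at least 100 counts over both arms did. In the hairpin entries the ratio of the summed miR-199 arms was 4.88, 4.80 and 5.10 and that of the miR-214 arms 3.79, 1.44 and 1.15, so both families had the higher 3p arm in every library, against 38.5% of 96 pairs. Those pairs were formed by listed name. By listed name 0 of the 3 member pairs did so in the mature entries and 2 of the 3, miR-199b and miR-214, in the hairpin entries, but the miR-199a and miR-199b counts depend on which of the identical 3p names took the reads. The shift of the 3p to 5p log2 ratio from mature to hairpin entries, with the names of each arm summed, was 5.06, 5.21 and 5.09 for miR-199 in replicates 1, 2 and 3. Over the 79 pairs counted in both types, the median size of this shift was 2.43, and 6 of the other 77 pairs shifted more than miR-199. The shift of miR-214 was 3.82, 1.74 and 1.20, and 42 of the other 78 pairs shifted more. The other pairs were taken by listed name, as the mean absolute shift with 1 added count, and their identical sequences were not summed. The members were taken as the mean shift without an added count, so both rankings set unlike measures side by side.

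The balance between entry types separated the members and was very even between libraries for some of them. Mature counts made up 6.41%, 5.55% and 5.73% of the mature plus hairpin counts of miR-199-3p in replicates 1, 2 and 3, with a mean of 5.90% ± 0.456 (SD, n = 3). For miR-199a-5p the share was 67.8%, 67.8% and 66.1%, and for miR-214-3p it was 54.5%, 54.9% and 54.0%. The exact binomial (Clopper-Pearson) 95% intervals of miR-214-3p were 52.0% to 57.0%, 52.9% to 56.9% and 51.5% to 56.5% in replicates 1, 2 and 3. They overlapped, so a difference between its libraries beyond counting error was not resolved. For miR-199-3p the interval of replicate 1, 6.19% to 6.64%, lay above those of the other libraries. miR-214-5p varied most, with 94.4%, 80.3% and 73.0% in replicates 1, 2 and 3, and miR-199b-5p had 91.9%, 85.1% and 83.5%.

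The mature percent of miR-199-3p was below that of miR-199a-5p in every library, with differences of -61.4, -62.2 and -60.4 percentage points in replicates 1, 2 and 3 and a mean of -61.3 ± 0.931 (SD, n = 3). The mean difference from miR-214-3p was -48.6 ± 0.687 points (SD, n = 3), and the exact sign-flip test gave p = 0.25 for both. Of the 5 members, with the 3p names summed, 1 had a mature percent below 50 in all 3 libraries, miR-199-3p, against 37.0% of the 216 names with at least 100 mature plus hairpin counts in each library. By listed name 0 of the 6 did, because the miR-199a-3p and miR-199b-3p names exchanged places between libraries. The mean over libraries had a median of 54.5% over these 216 names, and 19 other names had a lower one than miR-199-3p, whereas 134 were lower than miR-199a-5p and 107 lower than miR-214-3p.

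**Figure D3:**
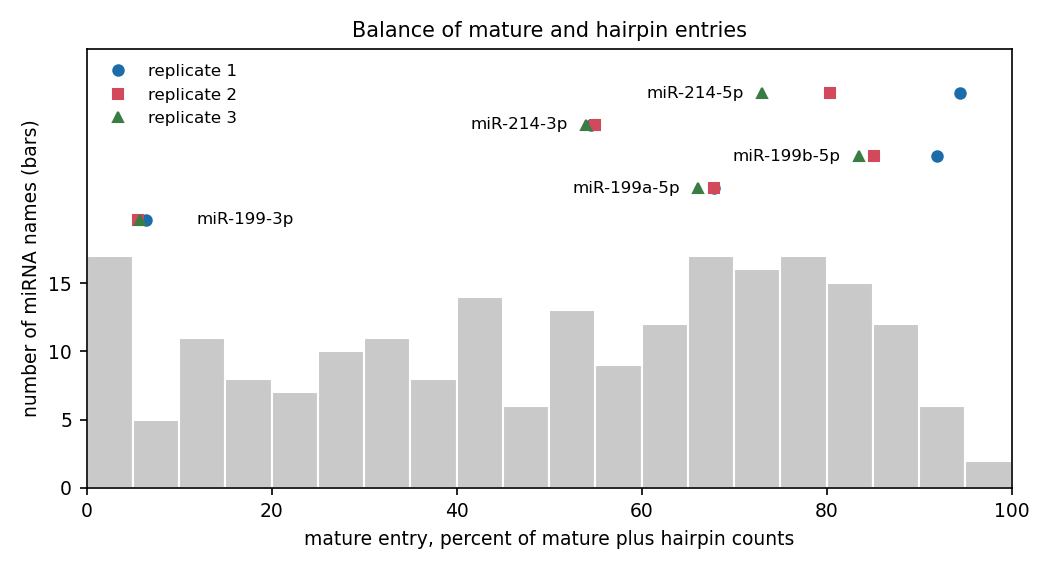
Mature counts as a percent of mature plus hairpin counts; grey bars count the 216 names with at least 100 such counts in each library by their mean over libraries, and the points above the bars show each library of each member (their height has no meaning). miR-199-3p lay between 5.55% and 6.41%, and miR-199a-5p, miR-214-3p, miR-199b-5p and miR-214-5p all lay above 50%.

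With mature and hairpin entries summed, miR-199-3p had 45645, 66056 and 48873 counts and ranked 4, 3 and 8 in replicates 1, 2 and 3 among 804 entries. In the same sums miR-199a-5p ranked 39, 35 and 50 of 805, and miR-214-3p ranked 83, 71 and 83. All 6 names together held 0.914%, 1.13% and 0.756% of the mature counts, with exact 95% intervals of 0.894% to 0.934%, 1.11% to 1.15% and 0.738% to 0.773%, which do not overlap. They held 9.11%, 10.8% and 8.39% of the hairpin counts. The rank of the family thus rested on the hairpin entries of the 3p arm.

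The identical 3p strand was listed under a different name in different libraries. Among mature counts, miR-199a-3p had 2722, 135 and 35 counts and miR-199b-3p had 205, 3529 and 2766, so the miR-199a-3p name held 93.0%, 3.68% and 1.25% of the sum. Among hairpin counts, miR-199a-3p had 1324, 1089 and 45885 counts and miR-199b-3p had 41394, 61303 and 187, and the miR-199a-3p name held 3.10%, 1.75% and 99.6%. In replicate 1 the mature reads carried mostly one name and the hairpin reads the other, and in replicate 3 the names were the other way round. Of the 3 sets of names that share a mature sequence and had at least 100 counts in each library, this one included, all had a leading name that differed between libraries, in each of the 5 combinations of set and entry type counted. The sum was steady where the names were not, since the highest library exceeded the lowest 86.3-fold for miR-199a-3p and 14.9-fold for miR-199b-3p in mature CPM, but 1.26-fold for their sum.

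**Figure D4:**
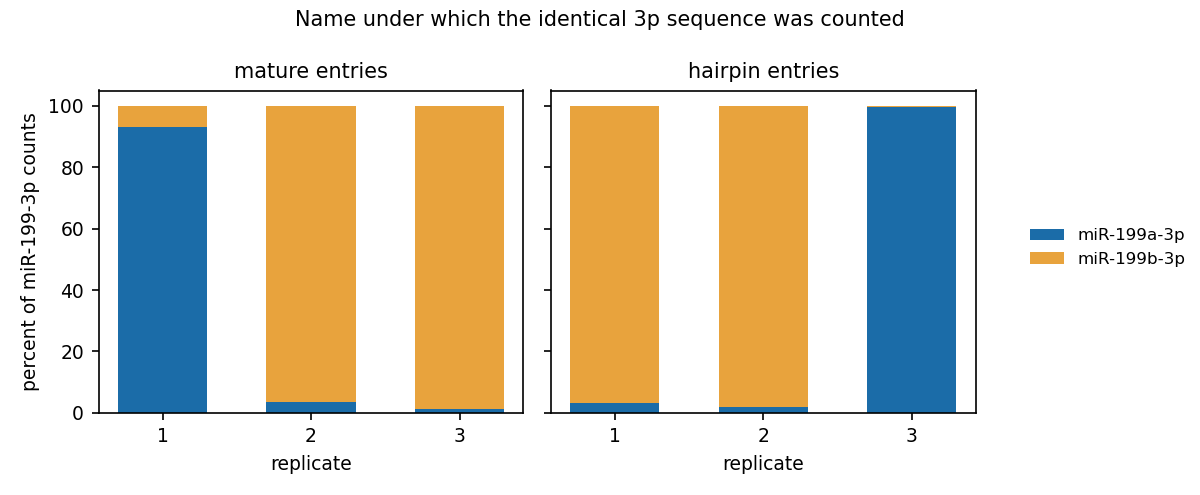
Percent of miR-199-3p counts listed under the miR-199a-3p name (blue) and the miR-199b-3p name (orange) in each library, for mature entries (left) and hairpin entries (right). The miR-199a-3p name held 93.0% of the mature counts in replicate 1 but 1.25% in replicate 3, and 99.6% of the hairpin counts in replicate 3 but 3.10% in replicate 1.

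Between libraries the members other than miR-214-5p varied by less than 2-fold once the 3p names were summed. In mature CPM, 0 of the 5 members with the 3p names summed had a highest library over 2-fold the lowest, while 2 of the 6 listed names did, both of them 3p names, against 40.4% of the 272 mature entries with at least 10 counts in each library. In hairpin CPM, 1 of the 5 did, miR-214-5p, against 43.2% of 324 entries. Both backgrounds take in entries from 10 counts upward, where counting error is larger, and were not matched to the members in level. miR-199-3p, miR-199a-5p, miR-214-3p and miR-214-5p, 4 of the 5, had their highest mature CPM in replicate 2 and their lowest in replicate 3, an order that 18.0% of the 272 mature entries shared. In the hairpin entries miR-199-3p, miR-199a-5p and miR-214-3p had this order, against 17.3% of 324 entries. The order was looked at after the values were seen, and with median-of-ratios size factors the highest mature library of miR-199-3p was replicate 1 instead.

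Closeness in level was measured as the largest absolute difference of log2 CPM over the 3 libraries among mature entries with counts in every library. miR-145a-5p was closest to miR-199-3p of 325 entries, with 3554, 3539 and 2918 CPM and a largest difference of 0.08, followed by miR-322-5p with 0.16 and miR-100-5p with 0.30. For miR-199a-5p the closest were miR-30b-5p with 0.27, miR-322-5p with 0.31 and miR-100-5p with 0.34. For miR-214-3p they were miR-503-3p with 0.24, miR-532-5p with 0.26 and miR-6538 with 0.27. This closeness describes 3 libraries of 1 condition.

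Because the vesicles came from whole testes, miRNAs associated with other cells were counted beside the members, and since these are bulk libraries, more vesicles of a cell type and more miRNA per vesicle cannot be told apart. The smooth muscle miRNAs miR-143-3p and miR-145a-5p together had 12592, 13757 and 12092 mature CPM, highest in replicate 2 and lowest in replicate 3. In the hairpin entries this sum was 14156, 13525 and 13843 CPM, lowest in replicate 2. The endothelial miR-126a-3p and miR-126a-5p had from 8790 to 17143 CPM, highest in replicate 3, where every summed member other than miR-199b-5p had its lowest mature CPM. The gonadal somatic miRNAs miR-202 and miR-140, of both arms, together had from 21412 to 30014 CPM. Their sum was carried by miR-202-5p, with 18595, 28354 and 24941 CPM, and like it was highest in replicate 2, whereas miR-202-3p, with 2607, 1444 and 1408 CPM, and miR-140-3p were highest in replicate 1. In the hairpin entries the sum was lowest in replicate 2, with 21551, 17809 and 24854 CPM. The erythroid miR-451a and miR-144-3p together had from 323 to 527 CPM. That sum was carried by miR-451a, with 519, 317 and 398 CPM, while miR-144-3p had 7, 6 and 4 counts. The leukocyte miR-223-3p, miR-142a-3p, miR-142a-5p and miR-150-5p together had from 336 to 628 CPM, carried by miR-150-5p with 392, 331 and 602 CPM. The others were low, with 33, 1 and 21 counts for miR-223-3p, 10, 2 and 1 for miR-142a-3p, and 1, 2 and 3 for miR-142a-5p. Of miR-34b-5p, miR-34c-5p and miR-449a-5p, abundant in meiotic and later germ cells, the first and second had 0 mature counts in each library, which allows up to 3.44 CPM, and miR-449a-5p had 442, 1060 and 652 CPM. The part of these cells in the levels of the members was not tested.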

How the data were processed

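Small RNA of PND7 testis EVs was sequenced by the authors on the BGISEQ-500 platform in 3 libraries. The authors removed low-quality reads, mapped clean reads with Bowtie2 and cmsearch, and gave each read to a single entry, with miRBase first in their order of databases. The submitters' processing notes name mm10. The aligner settings and the rule for reads that match several names were not given in the sources used here. The deposited catalogues hold raw read counts per entry, and the deposited class files hold counts and the percent of clean reads. A further catalogue column headed as molecular identifiers was not used.

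Counts were scaled to CPM of the mature or hairpin counts of each library and summarised by their mean and SD. miR-199a-3p and miR-199b-3p were summed. Log2 ratios and differences within libraries were compared by a two-sided exact permutation test over sign flips of the libraries. Intervals are exact binomial (Clopper-Pearson, 95%) and cover counting error only, since PCR copies were not told apart. Arm pairs and the balance of entry types required 100 counts in each library, the spread 10. The shift of arm ratios over all pairs used 1 added count. The named miRNAs were the members, miRNAs sharing a seed, the 3 closest in level to each of 3 members and fixed marker lists. The members and lists were chosen with earlier results of these data known. The labels call the replicates biological, without saying more of how the mice were divided. The log2 ratio formula was checked on simulated counts that varied by counting error only, and the sign-flip test on fixed values. Alternatives changed the entry type, scaling, pooling, an added count, the 5p names summed and each replicate left out. Of the 649 named miRNAs, without predicted ones, 541 matched a RefSeq mature sequence. The software was matplotlib 3.10.9, SciPy 1.17.1, pandas 2.3.3 and numpy 2.4.6 under Python 3.11.15.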

Additional observations from a re-analysis of the deposited data

Results flagged for a closer look

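The catalogues also list Rfam precursor entries, which none of the comparisons above used. Those described as mir-199, mir-214 and mir-761 are given here, although mir-761 is not a member. There were no control libraries. Each of these entries had more reads in every library than the 3 counts that a count of 0 allows. That limit covers counting error only and does not test whether reads were placed correctly. The entry described as the mir-199 precursor had 24273, 31015 and 30346 reads in replicates 1, 2 and 3, which was 20.3% ± 0.498 (SD, n = 3) of the precursor counts and rank 2 of 259 precursor entries. The entry described as mir-214 had 346, 535 and 464 reads and rank 29, and that described as mir-761, whose mature miRNA shares the miR-214-3p seed, had 68, 29 and 120 reads. The mir-199 entry exceeded the mir-214 entry 70.2-fold, 58.0-fold and 65.4-fold, beside the 60.4-fold, 59.2-fold and 64.1-fold of miR-199-3p over miR-214-3p in the hairpin entries. Which arm the precursor reads came from cannot be told from the counts.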

How the results depend on the processing

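Of the 16 results, the log2 ratio of miR-199-3p to miR-199a-5p in mature entries changed direction, from -0.07 to 3.44 with mature and hairpin entries summed, because the sum takes in the hairpin counts of the 3p arm. It ranged from -0.19 to 0.06 with a replicate left out, and was above 0 without replicate 2. The other 7 tested results kept their direction under every alternative run for them. Other denominators lowered levels by construction. Scaled to all miRNA entries, miR-199-3p, miR-199a-5p and miR-214-3p had 1898, 2040 and 598 CPM in mature entries and 30397, 987 and 499 in hairpin entries, and scaled to clean reads they had 118, 128 and 37.5 CPM and 1903, 62.0 and 31.3 CPM, in the same order. The share held by all members was 0.934% of mature counts, 9.43% of hairpin counts and 4.09% of both. The share of miR-199-3p under the miR-199a-3p name rested on single libraries, with 32.6% in the mean of mature counts and 2.47% without replicate 1. The spread of this share was 52.3 percentage points (SD, n = 3). With 3 libraries, leaving out a replicate cannot move a mean by more than its SD, so such shifts do not test stability. Counting error was not compared with the spread between libraries for each result, and for the mature percent of miR-214-3p the counting intervals overlapped. The number of libraries limits the exact test.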
